A study of Mus musculus with 21 samples.

Results

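MicroRNAs (miRNAs) are small RNAs that guide Argonaute proteins to messenger RNAs, and the bases near the 5′ end of the miRNA, the seed, set most of the pairing to a target. The miR-125, miR-99 and miR-100 strands are cut from hairpins that vertebrate genomes keep beside let-7 hairpins in short clusters, so that strands of a cluster can come from the same primary transcript. miR-125 is the relative of lin-4, the founding miRNA of nematodes, which times developmental transitions together with let-7.

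The 6 strands described here, miR-125a-5p, miR-125b-5p, miR-125a-3p, miR-99a-5p, miR-99b-5p and miR-100-5p, were chosen by name, as the members of these families that are abundant enough to be followed, with the other arm of the miR-125a hairpin. They are 6 of the 1909 miRNA names listed for the virgin cohort and 6 of the 1841 listed for the breeding trial cohort, and all 6 were found in each of the 6 tables. The study used knock-in mice, reported earlier, whose *Zeb1* gene is resistant to the miR-200a/b miRNAs and asked how this changes miRNA levels in the pituitary. Small RNAs of the pituitary were sequenced in WT females, in females heterozygous for the knock-in (Zeb1_200H) and in females homozygous for it (Zeb1_200M), all of the C57BL/6J background. The virgin cohort was 8 to 12 weeks old, with 3 WT, 4 Zeb1_200H and 4 Zeb1_200M libraries. The breeding trial cohort was 28 to 36 weeks old, with 4 WT, 3 Zeb1_200H and 3 Zeb1_200M libraries. Its females had been housed with WT males to breed before collection. The paper reports that most Zeb1_200M females of the trial bore no litter, and that litters were fewer than in the other genotypes. In that cohort the Zeb1_200M genotype and pregnancy history therefore cannot be told apart. The knock-in carries point mutations in the miR-200a/b sites of the *Zeb1* 3′ UTR in all cells of the animal, and the mice descend from the ES cell clones 6B6 and 3C5. Females were collected in proestrus, as staged by vaginal cytology.

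Depth differed strongly between the cohorts. The virgin libraries held 3816917, 10806313 and 9029142 counts in WT replicates 1, 2 and 4, then 10266419, 9698685, 10082073 and 8551806 in Zeb1_200H replicates 1 to 4, and 10515664, 9508346, 8502878 and 10260660 in Zeb1_200M replicates 1 to 4. The breeding trial libraries held 154546, 113937, 84093 and 191650 counts in WT replicates 1 to 4, then 110003, 60037 and 131324 in Zeb1_200H replicates 1, 3 and 4, and 87665, 124190 and 122810 in Zeb1_200M replicates 1 to 3. The cohorts also differed in RNA input, instrument and miRNA dictionary, so levels were compared within a cohort only. Just the genotype differences were set against each other between cohorts. Cohort, age and mating history cannot be told apart from these technical differences. Levels below are TMM-scaled CPM, that is counts scaled to library size by the trimmed mean of M values, and values are listed in the order of replicate numbers just given.

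The members fall into 3 seed groups. The sequences are shown to let the shared seeds and the bases that separate near-identical strands be seen. They are the RefSeq mature sequences of GRCm38.p6, 5′ to 3′, and capitals mark the seed, bases 2 to 8. miR-125a-5p and miR-125b-5p share the seed CCCUGAG, which miR-351-5p, a relative outside the clusters, also carries.
miR-125a-5p: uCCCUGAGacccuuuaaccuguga
miR-125b-5p: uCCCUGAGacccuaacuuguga
miR-351-5p: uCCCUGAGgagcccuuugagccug
miR-99a-5p, miR-99b-5p and miR-100-5p share the seed ACCCGUA, and the 3p arm of the miR-125a hairpin has a seed of its own, CAGGUGA.
miR-99a-5p: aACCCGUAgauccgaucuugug
miR-99b-5p: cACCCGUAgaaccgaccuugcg
miR-100-5p: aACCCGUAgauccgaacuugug
miR-125a-3p: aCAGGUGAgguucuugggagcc

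Positions are counted from 1 at the 5′ end of the miRNA named first. miR-99a-5p and miR-100-5p differ only by U16A. From miR-99a-5p to miR-99b-5p the changes are A1C, U11A, U16C and U21C, and from miR-125a-5p to miR-125b-5p, aligned without gaps, they are U14A, U15A, A16C, A17U, C18U, C19G and U22A. The authors matched the first 19 nt of a virgin read, without mismatch, and the first 18 nt of a breeding trial read, for which no limit on mismatches is stated. Within these bases miR-99a-5p and miR-100-5p can be told apart by 1 base, miR-99a-5p and miR-99b-5p by 3 bases, and miR-125a-5p and miR-125b-5p by 6 bases of 19 and 5 bases of 18. A read of miR-99a-5p with an error at position 16 could therefore be counted as miR-100-5p, which was the rarer of these strands in every library.

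The hairpins lie in 3 clusters, each on the plus strand, by the GENCODE vM21 annotation of GRCm38. On chromosome 9, *Mir100* (41531425 to 41531504), *Mirlet7a-2* (41536716 to 41536811) and *Mir125b-1* (41581926 to 41582002) span 50578 bp and lie in introns of the noncoding genes *3110039I08Rik* and *Gm49317*, with *Mir125b-1* also within an exon of *Gm28119*. On chromosome 16, *Mir99a* (77598936 to 77599000), *Mirlet7c-1* (77599657 to 77599750) and *Mir125b-2* (77646273 to 77646343) span 47408 bp and lie in introns of the noncoding gene *Mir99ahg*. On chromosome 17, *Mir99b* (17830188 to 17830257), *Mirlet7e* (17830352 to 17830444) and *Mir125a* (17830812 to 17830879) span 692 bp within *Spaca6*, where *Mir125a* overlaps an exon of 1 of 3 spanning transcripts and the others lie in introns. Mature miR-125b-5p has the same sequence from chromosomes 9 and 16, so its counts add up both hairpins, while the passenger strands miR-125b-1-3p and miR-125b-2-3p tell them apart.

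**Figure D1:**
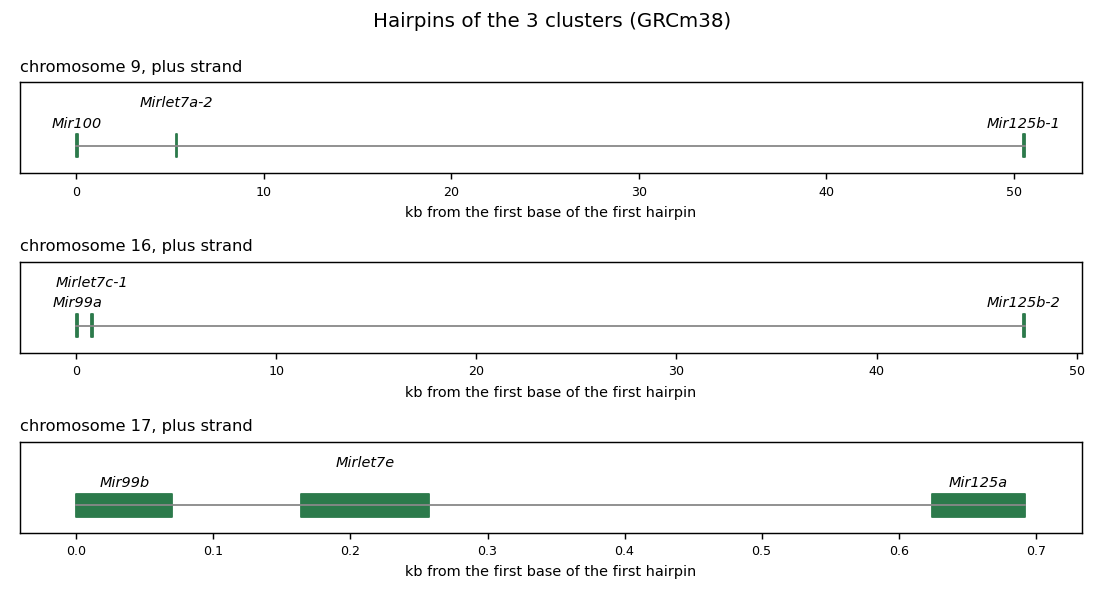
Map of the 3 clusters on the plus strand of GRCm38, drawn to scale within each panel; the horizontal axis is the distance in kb from the first base of the first hairpin and green boxes are hairpins. The clusters on chromosomes 9 and 16 span 50578 and 47408 bp and that on chromosome 17 spans 692 bp.

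miR-125b-5p and miR-125a-5p were among the most abundant miRNAs of the pituitary, at ranks 9 and 15 by mean CPM in virgin females and 7 and 11 in the breeding trial, whose tables were processed separately. miR-99a-5p ranked 44 and 28, miR-99b-5p 67 and 57, miR-100-5p 175 and 148, and miR-125a-3p 283 and 256. In 19 of 21 libraries the order from highest to lowest was miR-125b-5p, miR-125a-5p, miR-99a-5p, miR-99b-5p, miR-100-5p and miR-125a-3p. The exceptions were virgin WT replicate 1, where miR-125a-3p stood above miR-100-5p, and breeding trial WT replicate 2, where miR-125a-5p stood above miR-125b-5p. In breeding trial WT the level of miR-125b-5p was 24940 ± 563 (SD, n = 4) and that of miR-125a-5p 22965 ± 2082, so these neighbours did not differ beyond their spread, whereas in Zeb1_200H (29416 ± 3495 and 18289 ± 2194, n = 3) and Zeb1_200M (31069 ± 3368 and 18209 ± 1851, n = 3) they were separate. With virgin WT replicate 1 set apart, the ranges of all other neighbours were separate in every group of each cohort. Together the 6 strands made up 4.68 to 6.92% of counts in the breeding trial libraries and 1.73 to 5.64% in the virgin libraries, where the lowest share was that of WT replicate 1.

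WT replicate 1 of the virgin cohort stood apart from its group and is described before the comparisons that use it. It had the fewest counts of its cohort and a TMM factor of 0.638, against 0.942 to 1.12 in the other virgin libraries. Of 474 miRNAs with a sufficient mean count in WT, 92 were lower and 63 higher in this library by more than 1 on the log2 scale than the mean of WT replicates 2 and 4. Among the members, miR-100-5p differed by −1.02, miR-125b-5p by −1, miR-99a-5p by −0.985 and miR-125a-5p by −0.77 on the log2 scale, whereas miR-99b-5p differed by −0.01 and miR-125a-3p by +1.47. WT replicates 2 and 4 differed from each other by at most 0.16 in these 6 strands. Thus, on the TMM scale, 4 members were low, 1 was level and 1 was high in the same library. As a share of counts, miR-99b-5p was low as well, at 0.1327% against 0.1995 and 0.2024% in WT replicates 2 and 4. miR-125a-3p was high in its share too, at 0.01457% against 0.007912 and 0.007764%.

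In WT replicate 1, on the TMM scale, some strands that share a cluster moved together and others did not. miR-100-5p, miR-99a-5p and miR-125b-5p, from chromosomes 9 and 16, were low by a similar amount. On chromosome 17, miR-125a-5p was low, miR-99b-5p was level, and let-7e-5p was at 17308 against 6893 and 6202 in WT replicates 2 and 4, a log2 difference of +1.4, whereas let-7e-3p, the other arm of that hairpin, was at 22.6 against 53.4 and 51.4, a difference of −1.2. On chromosome 16, the guide miR-99a-5p differed by −0.985 and its passenger strand miR-99a-3p, at 8.62 against 56.0 and 41.2, by −2.41. The passenger strands of the miR-125b hairpins were high, miR-125b-1-3p by +1.64 and miR-125b-2-3p by +0.65, while their guide was low. As a share of counts, miR-125b-1-3p was high as well, at 0.005869% against 0.002804 and 0.002769% in WT replicates 2 and 4. The share of miR-125b-2-3p, at 0.009746% against 0.01006 and 0.008617%, lay between those libraries. let-7c-5p (+0.61) and let-7a-5p (+0.91), which also come from hairpins outside these clusters, were high. By share of counts let-7a-5p was high too, at 2.611% against 2.158 and 2.019% in WT replicates 2 and 4. The share of let-7c-5p, at 2.629% against 2.667 and 2.514%, lay between those libraries. let-7c-1-3p and let-7a-2-3p had 4 counts and 1 count in WT replicate 1, too few to compare. Pituitary endocrine markers summed to 578141 in this library against 285999 and 281003 in the other WT libraries. By share of counts the difference was smaller, at 36.9% against 26.94 and 27.31%. One of these markers, miR-7b-5p, was lower by share, at 4.053% against 4.817 and 4.745%. The part of these markers in the levels of the members was not tested.

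**Figure D2:**
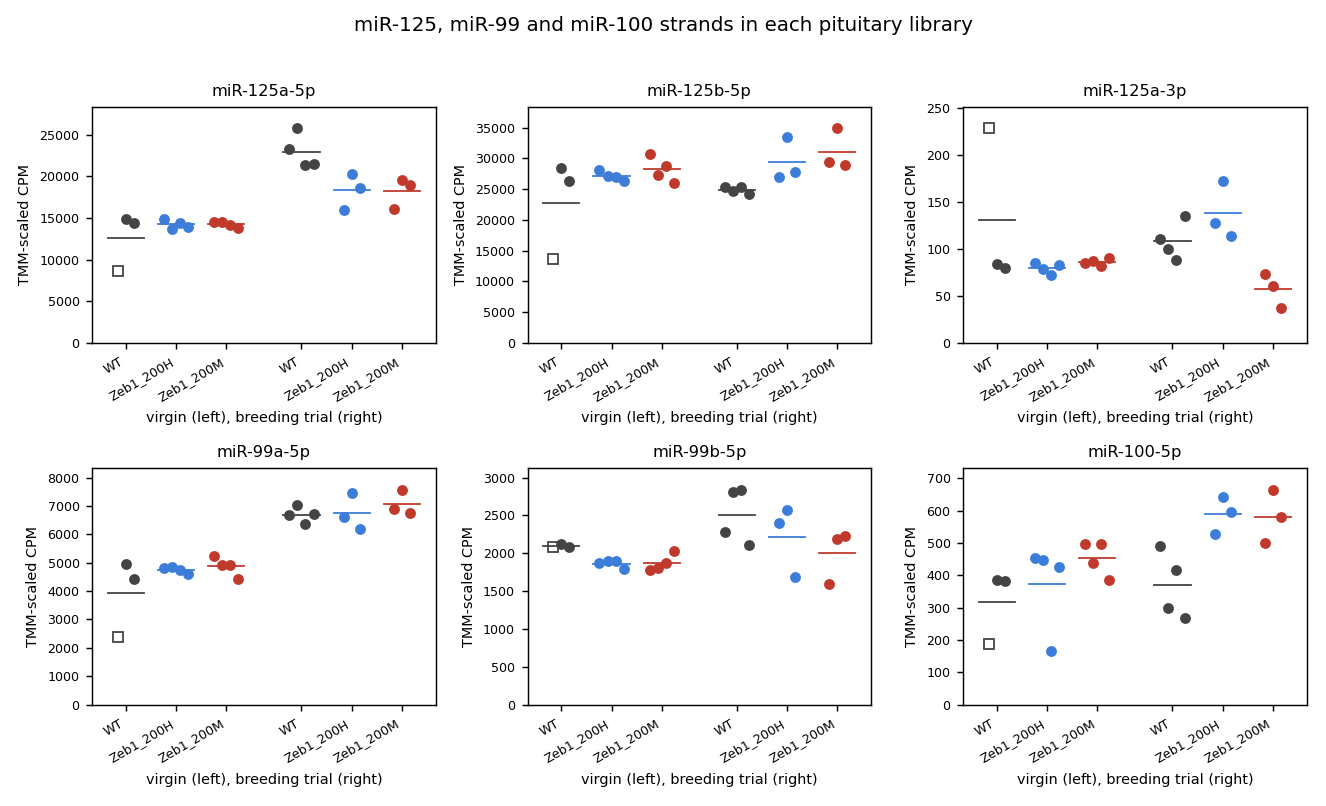
TMM-scaled CPM of each member (vertical axis, from 0) in every library by genotype, virgin on the left and breeding trial on the right; points are libraries, horizontal lines are group means, and the open square is WT replicate 1 of the virgin cohort. The square lies below the other WT points for 4 members, beside them for miR-99b-5p and above them for miR-125a-3p, and in the breeding trial cohort the mutant points for miR-125a-5p lie below and those for miR-125b-5p and miR-100-5p above the WT points.

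In the virgin cohort no member passed the test between genotypes. Zeb1_200M and Zeb1_200H were each compared with the same WT libraries, so these comparisons are not independent, and their values are given side by side. In edgeR's quasi-likelihood test, 0 of 6 members had a Benjamini-Hochberg adjusted p below 0.05 in Zeb1_200M against WT, where 6.49% of 678 tested miRNAs did, and 0 of 6 in Zeb1_200H against WT, where 5.06% of 672 did. In Zeb1_200M against Zeb1_200H the count was 0 of 6, beside 2.22% of 675. Without adjustment, edgeR counted 0 members below 0.05 in each comparison, DESeq2 called 0, and limma voom called 0 with 2, 1 and 0 below 0.05 unadjusted. Over all miRNAs, edgeR had 150, 131 and 63 below 0.05 unadjusted, DESeq2 called 86 of 645, 66 of 755 and 20 of 1235, and limma voom called 184 of 678, 152 of 672 and 15 of 675. Without WT replicate 1 edgeR called 168 of 703 miRNAs in Zeb1_200M and 151 of 699 in Zeb1_200H, and again 0 of 6 members (1 below 0.05 unadjusted in each). A p above the threshold does not show that their levels were the same.

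miR-125b-5p, the most abundant member, was at 13636, 28404 and 26270 in virgin WT, at 28080, 27089, 26929 and 26274 in Zeb1_200H, and at 30714, 27289, 28830 and 25981 in Zeb1_200M. Apart from WT replicate 1, the libraries of the 3 genotypes lay in 1 range. Its log2 fold change in Zeb1_200M was +0.29 with all libraries and +0.06 without WT replicate 1, and in Zeb1_200H +0.25 and 0.00, whereas without WT replicate 2 they were +0.47 and +0.43. miR-125a-5p was at 8580, 14813 and 14397 in WT, at 14886, 13709, 14416 and 13884 in Zeb1_200H, and at 14468, 14456, 14187 and 13750 in Zeb1_200M. Again only WT replicate 1 was low, and the log2 fold changes, +0.16 and +0.17, were −0.02 and −0.02 without it and +0.28 and +0.30 without WT replicate 2.

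miR-100-5p was at 189, 386 and 381 in virgin WT, at 454, 448, 165 and 427 in Zeb1_200H, and at 497, 439, 496 and 385 in Zeb1_200M. WT replicate 1 and Zeb1_200H replicate 3 were low, and the groups overlapped. Its log2 fold change was +0.49 in Zeb1_200M and +0.23 in Zeb1_200H, and +0.26 and −0.02 without WT replicate 1, and in Zeb1_200H it was +0.47 without Zeb1_200H replicate 3. miR-99a-5p ranged from 2366 to 4958 in WT, from 4601 to 4860 in Zeb1_200H and from 4426 to 5221 in Zeb1_200M, with log2 fold changes of +0.30 and +0.28, which were +0.07 and +0.03 without WT replicate 1 and +0.49 and +0.48 without WT replicate 2. miR-125a-3p was at 228, 84.0 and 79.9 in WT, and between 72.1 and 89.9 in the mutant libraries. Here only WT replicate 1 was high, and the log2 fold changes, −0.63 in Zeb1_200M and −0.73 in Zeb1_200H, were +0.09 and −0.03 without it.

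On the TMM scale, the level of miR-99b-5p in WT replicate 1 was like that of the other WT libraries. It was at 2079, 2118 and 2082 in virgin WT, at 1871, 1895, 1897 and 1787 in Zeb1_200H, and at 1782, 1810, 1873 and 2026 in Zeb1_200M. Every mutant library lay below every WT library, with log2 fold changes of −0.19 in Zeb1_200M and −0.18 in Zeb1_200H. As a share of counts the groups overlapped, at 0.1327, 0.1995 and 0.2024% in WT, 0.1901 to 0.2069% in Zeb1_200H and 0.1904 to 0.2153% in Zeb1_200M. By TMM-scaled levels miR-99b-5p was the 1 of 6 members whose groups did not overlap in each of these comparisons. The groups of 26% and 25.1% of tested miRNAs did not overlap either, so this count is near the background. Between Zeb1_200M and Zeb1_200H the groups of 0 members and of 5.63% of miRNAs did not overlap. Adjusted p values in edgeR (Benjamini-Hochberg) were 0.375 and 0.385 for miR-99b-5p, and 0.248 and 0.125 without WT replicate 1 (0.109 and 0.0380 unadjusted). The median log2 fold change of the members was +0.22 in Zeb1_200M and +0.20 in Zeb1_200H against −0.00253 and 0.00618 over all miRNAs tested. On the TMM scale, 4 of the members were low in WT replicate 1.

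In the breeding trial cohort, miR-100-5p and miR-125b-5p were higher and miR-125a-5p lower in Zeb1_200M than in WT. These were 3 of 5 members called by edgeR after Benjamini-Hochberg adjustment among those that passed the count filter through libraries of both genotypes, where 94 of 270 such miRNAs were called, so a large share of the profile changed along with them. Over all 276 miRNAs tested 35.9% were called. miR-125a-3p passed the filter through WT alone, and was thus tested only because it was high enough there, so it is left out of this count. Of the 6 miRNAs that passed through 1 genotype alone, 5 were called, miR-125a-3p among them. In Zeb1_200H against the same WT libraries, 1 of 6 members was called, miR-100-5p, beside 12% of 267 tested. Between Zeb1_200M and Zeb1_200H, edgeR called 0 of the 5 members that passed through both genotypes, beside 3 of 272, and DESeq2 and limma voom also called 0. Among miRNAs that passed through both genotypes, the groups did not overlap for 3 of 5 members in Zeb1_200M against WT, beside 103 of 270, for 3 of 6 in Zeb1_200H against WT, beside 55 of 263, and for 0 of 5 between the mutants, beside 45 of 272. Over all tested miRNAs these shares were 39.5%, 22.1% and 17.2%.

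miR-100-5p was at 492, 298, 417 and 269 in breeding trial WT, at 528, 642 and 596 in Zeb1_200H, and at 499, 665 and 581 in Zeb1_200M. All 6 mutant libraries lay above all 4 WT libraries, though Zeb1_200M replicate 1 was close to WT replicate 1. The raw counts behind these levels were 33 to 67 in WT and 41 to 88 in the mutants. The log2 fold change was +0.71 (SE 0.204) in Zeb1_200M, with an edgeR Benjamini-Hochberg adjusted p of 0.00870, and +0.71 (SE 0.216) in Zeb1_200H, with 0.0323. In Zeb1_200M the edgeR adjusted p (Benjamini-Hochberg) was 0.0614 without Zeb1_200M replicate 2. In Zeb1_200H the adjusted p of edgeR was 0.0710 without WT replicate 2, 0.106 without WT replicate 4, 0.103 without Zeb1_200H replicate 3 and 0.119 without Zeb1_200H replicate 4. DESeq2 gave an adjusted p of 0.106 for Zeb1_200H and limma voom 0.0610. With the replicate number as a block, edgeR called 2 members in Zeb1_200H, miR-100-5p (+0.67, adjusted p 0.00527) and miR-125b-5p (+0.28, adjusted p 0.0110). Same-numbered libraries correlated only weakly there, and this fit called 47 of 267 miRNAs, against 32 of 267 without the block. In Zeb1_200M the blocked edgeR fit gave miR-100-5p +0.54 with an adjusted p of 0.0889.

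miR-125b-5p was at 25431, 24783, 25334 and 24212 in breeding trial WT, at 27007, 33424 and 27816 in Zeb1_200H, and at 29341, 34950 and 28916 in Zeb1_200M. The 4 WT libraries were close to each other and below all 6 mutant libraries. The log2 fold change was +0.34 (SE 0.0943) in Zeb1_200M, with an edgeR Benjamini-Hochberg adjusted p of 0.00732, and +0.27 (SE 0.105) in Zeb1_200H, with 0.101. In Zeb1_200H it was +0.14 without Zeb1_200H replicate 3, the highest library of that group, with an edgeR adjusted p of 0.377. Without Zeb1_200M replicate 2, the highest library, the edgeR adjusted p in Zeb1_200M was 0.0683. Its virgin values, without WT replicate 1, showed no such shift, and the difference between cohorts is given below.

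miR-125a-5p, which shares the seed of miR-125b-5p, went the other way. It was at 23286, 25786, 21333 and 21457 in breeding trial WT, at 15942, 20289 and 18636 in Zeb1_200H, and at 16101, 19569 and 18957 in Zeb1_200M. On the TMM scale, all 6 mutant libraries lay below all 4 WT libraries, with Zeb1_200H replicate 3 nearest to WT. As a share of counts the groups overlapped, at 1.829 to 2.504% in WT, 1.593 to 2.159% in Zeb1_200H and 1.766 to 2.084% in Zeb1_200M. The log2 fold change was −0.32 (SE 0.1005) in Zeb1_200M, with an edgeR Benjamini-Hochberg adjusted p of 0.0171, and −0.30 (SE 0.117) in Zeb1_200H, with 0.101. In Zeb1_200M the edgeR adjusted p was 0.0508 without WT replicate 2 and 0.132 without Zeb1_200M replicate 1, and in Zeb1_200H it was 0.0489 without Zeb1_200H replicate 3. Without Zeb1_200H replicate 1, the lowest library, the log2 fold change in Zeb1_200H was −0.17, with an edgeR adjusted p of 0.506. limma voom gave −0.35 in Zeb1_200H with an adjusted p of 0.0336.

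The 5p members with the seed CCCUGAG, miR-125a-5p and miR-125b-5p, together were at 48717, 50569, 46667 and 45669 in breeding trial WT, at 42949, 53713 and 46452 in Zeb1_200H, and at 45442, 54519 and 47872 in Zeb1_200M. The groups overlapped fully. The strands with the seed ACCCGUA together were at 9451, 10141, 9631 and 9085 in WT, at 9536, 10677 and 8456 in Zeb1_200H, and at 8976, 10435 and 9571 in Zeb1_200M, and here too the groups overlapped. Virgin sums of this group were 6810 to 7202 in Zeb1_200H, 6838 to 7500 in Zeb1_200M and 4634, 7462 and 6890 in WT, with WT replicate 1 low.

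miR-125a-3p rested on few reads in the breeding trial cohort. Its raw counts were 15, 11, 7 and 22 in WT, 14, 11 and 16 in Zeb1_200H, and 7, 8 and 5 in Zeb1_200M. Its levels were 110, 99.4, 88.4 and 135 in WT, 127, 172 and 114 in Zeb1_200H, and 72.8, 60.5 and 37.3 in Zeb1_200M. The 3 Zeb1_200M libraries were the lowest, and WT and Zeb1_200H overlapped. All 4 WT libraries and 0 of 3 Zeb1_200M libraries reached the cut of the count filter, so the strand was tested in Zeb1_200M against WT only because it was high enough in WT, and its p there is not taken as support for a difference. The same held between the mutants, where 3 Zeb1_200H and 0 Zeb1_200M libraries reached the cut. The log2 fold change was −0.97 (SE 0.348) in Zeb1_200M against WT, with an edgeR Benjamini-Hochberg adjusted p of 0.0302, +0.27 in Zeb1_200H against WT (+0.12 without Zeb1_200H replicate 3), with 0.609, and −1.22 (SE 0.420) between the mutants, with 0.130. The p in Zeb1_200M also depended on single libraries and on the tool. Its edgeR adjusted p was 0.0573 without WT replicate 2, 0.0765 without Zeb1_200M replicate 2 and 0.219 without Zeb1_200M replicate 3, and the strand did not pass the count filter without WT replicate 1 or WT replicate 4. It was 0.178 in DESeq2, 0.0732 in edgeR without a filter on low counts and 0.136 in edgeR with the replicate number as a block.

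miR-99a-5p and miR-99b-5p were not called in the breeding trial cohort. miR-99a-5p ranged from 6375 to 7032 in WT, from 6179 to 7468 in Zeb1_200H and from 6769 to 7577 in Zeb1_200M, with log2 fold changes of +0.10 in Zeb1_200M and +0.04 in Zeb1_200H. miR-99b-5p was at 2284, 2811, 2840 and 2106 in WT, at 2393, 2567 and 1681 in Zeb1_200H, and at 1591, 2193 and 2221 in Zeb1_200M. The groups overlapped for each strand. The log2 fold change of miR-99b-5p was −0.29 in Zeb1_200M, with an edgeR Benjamini-Hochberg adjusted p of 0.112, and −0.17 in Zeb1_200H, with 0.546. With the replicate number as a block it was −0.41 in Zeb1_200M, with an adjusted p of 0.0235 in edgeR, and without WT replicate 4 it was −0.37, with 0.0304, but −0.16 without Zeb1_200M replicate 1, with 0.491. In Zeb1_200H it was 0.00627 without Zeb1_200H replicate 4.

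With miR-125a-3p set aside, the number of the other 5 members called in Zeb1_200M against WT varied with the libraries. It was 3 with all of them (of 99 miRNAs called among 276), 3 without WT replicate 1 (of 77 among 265), 2 without WT replicate 2 (of 88 among 271), 3 without WT replicate 3 (of 95 among 272) and 4 without WT replicate 4 (of 98 among 270), where miR-99b-5p was called as well. It was 2 without Zeb1_200M replicate 1 (of 78 among 288), 1 without Zeb1_200M replicate 2 (of 76 among 281) and 3 without Zeb1_200M replicate 3 (of 84 among 281). In Zeb1_200H against WT it was 1 with all libraries (of 32 among 267) and 0 without WT replicate 2 (of 26 among 271), WT replicate 4 (of 29 among 266) or Zeb1_200H replicate 4 (of 24 among 270). Without Zeb1_200H replicate 3 it was 1 (of 26 among 282), and the member was then miR-125a-5p.

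Calls in the breeding trial cohort alone do not show that the effect of the genotype differed between cohorts, so that difference was tested. In an interaction model over all 21 libraries, edgeR called 0 of 566 miRNAs, or 0%, in Zeb1_200M against WT, in Zeb1_200H against WT and between the mutants, and thus 0 of 6 members each time. Below 0.05 unadjusted were 44, 49 and 16 miRNAs, with 1 member in each. With RLE size factors the counts of called miRNAs were also 0, and without a filter on low counts edgeR called 7, 5 and 0 miRNAs and 0 members. For miR-125a-5p the virgin effect minus the breeding trial effect was +0.45 (SE 0.196) in Zeb1_200M, with an edgeR Benjamini-Hochberg adjusted p of 0.605, and +0.48 (SE 0.196) in Zeb1_200H, with 0.512, and without virgin WT replicate 1 these were +0.23 and +0.24. For miR-125b-5p in Zeb1_200M it was −0.06 (SE 0.219), with an edgeR adjusted p of 1, and −0.34 without virgin WT replicate 1, with 0.394. For miR-125a-3p it was +0.34 (SE 0.548) in Zeb1_200M, with an edgeR adjusted p of 0.920, and +1.02 without virgin WT replicate 1, with 0.372. Between the mutants it was +1.34 (SE 0.557) for miR-125a-3p, with an edgeR adjusted p of 0.974. For miR-100-5p it was −0.22 in Zeb1_200M and −0.48 in Zeb1_200H, with edgeR adjusted p of 0.950 and 0.706, and −0.51 and −0.77 without virgin WT replicate 1. Without that library edgeR again called 0 members in each comparison (2, 1 and 1 below 0.05 unadjusted).

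Ratios of strands within a library do not depend on the scaling between libraries. The 7 ratios that the clusters define were compared between genotypes over both cohorts by an exact two-sided permutation test within cohorts, and 21 tests were adjusted together. The ratio of miR-125a-5p to miR-125b-5p, which sets the cluster on chromosome 17 against the other clusters, was the 1 ratio that passed, in 2 of 21 tests. It was 0.916, 1.04, 0.842 and 0.886 in breeding trial WT, 0.590, 0.607 and 0.670 in Zeb1_200H, and 0.549, 0.560 and 0.656 in Zeb1_200M. All 6 mutant libraries lay well below all 4 WT libraries, so that WT held nearly equal counts of the strands and the mutants did not.

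In the virgin cohort the ratio of miR-125a-5p to miR-125b-5p was 0.629, 0.522 and 0.548 in WT, 0.530, 0.506, 0.535 and 0.528 in Zeb1_200H, and 0.471, 0.530, 0.492 and 0.529 in Zeb1_200M. WT replicate 1 was the highest, and the groups overlapped. Over both cohorts the ratio was 0.756-fold (log2 difference −0.40) in Zeb1_200M against WT, with a two-sided exact permutation p of 0.00245 and a Benjamini-Hochberg adjusted p of 0.0343. In Zeb1_200H it was 0.793-fold (−0.33), with an exact permutation p of 0.00327 and an adjusted p of 0.0343. Within the breeding trial cohort the log2 differences were −0.65 and −0.56, each with an exact permutation p of 0.0286, the smallest that 35 arrangements can give, and within the virgin cohort they were −0.16 and −0.10, with exact p of 0.143 and 0.171. These virgin differences would be smaller without WT replicate 1, whose ratio was 0.629 against 0.522 and 0.548 in the other WT libraries. Between the mutants the log2 difference was −0.07, with an exact permutation p of 0.209. Zeb1_200M and Zeb1_200H share the WT libraries here as well. The permutation does not use the assumed pairing of same-numbered libraries in breeding trial Zeb1_200H and WT.

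The adjusted p of the ratio of miR-125a-5p to miR-125b-5p crossed the threshold when 1 library was left out, although the direction stayed the same each time. For Zeb1_200M against WT the exact permutation test gave an adjusted p of 0.06 without any 1 of the 7 breeding trial libraries of that comparison and 0.08 without virgin WT replicate 1 or virgin WT replicate 4. For Zeb1_200H against WT it gave 0.06 without any of breeding trial WT replicates 1 to 4 or virgin Zeb1_200H replicate 2, and 0.08 without breeding trial Zeb1_200H replicates 1, 3 or 4, virgin WT replicate 1 or virgin WT replicate 4. The adjustment runs over 21 tests, so libraries outside a comparison also moved it: it was 0.0514 in Zeb1_200M without breeding trial Zeb1_200H replicates 1, 3 or 4 or virgin Zeb1_200H replicate 2, and 0.06 in Zeb1_200H without breeding trial Zeb1_200M replicates 1, 2 or 3. The log2 difference lay between −0.44 and −0.36 for Zeb1_200M and between −0.36 and −0.29 for Zeb1_200H. With medians in place of means, the adjusted p of the exact permutation test was 0.0857 for each.

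**Figure D3:**
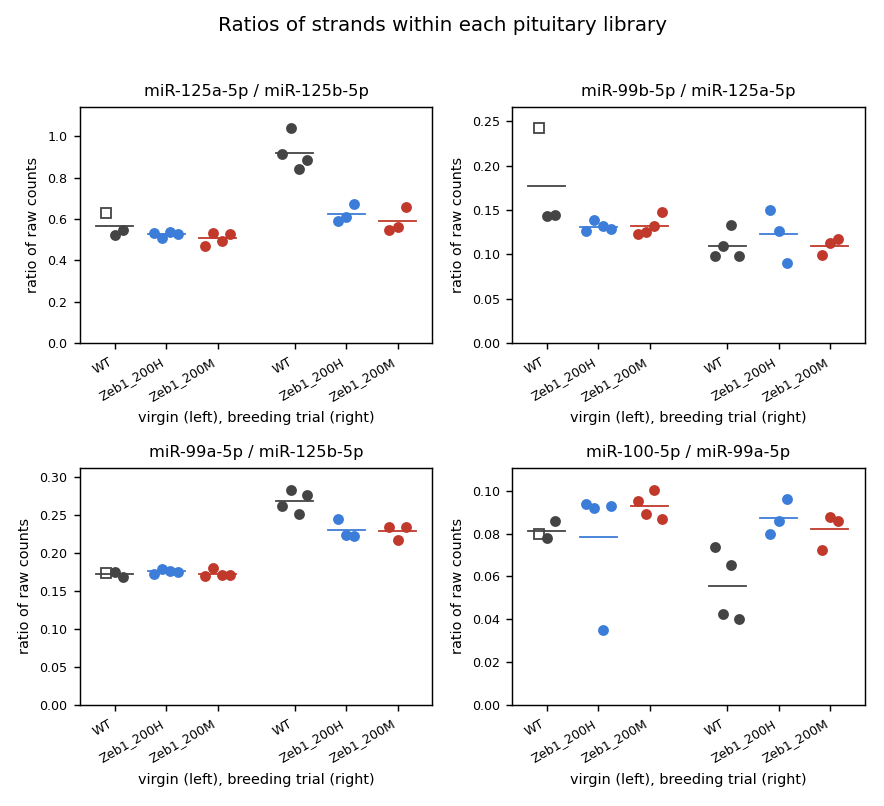
Ratios of raw counts within each library (vertical axes, from 0) for 4 strand ratios, by genotype, virgin on the left and breeding trial on the right; points are libraries, lines are group means, and the open square is WT replicate 1 of the virgin cohort. In the breeding trial cohort miR-125a-5p over miR-125b-5p lies between 0.842 and 1.04 in WT and between 0.549 and 0.670 in the mutants.

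The other ratios did not pass. miR-99a-5p over miR-125b-5p, whose strands share the cluster on chromosome 16 and whose denominator also comes from chromosome 9, was the most even ratio of the virgin cohort, at 0.169 to 0.175 in WT, 0.172 to 0.179 in Zeb1_200H and 0.170 to 0.180 in Zeb1_200M. WT replicate 1 was ordinary in it, at 0.174, although each strand was low there. In the breeding trial cohort it was 0.262, 0.284, 0.252 and 0.277 in WT, 0.245, 0.223 and 0.222 in Zeb1_200H, and 0.235, 0.217 and 0.234 in Zeb1_200M. All mutant libraries lay below all WT libraries, with a two-sided exact permutation p of 0.0286 for Zeb1_200M and for Zeb1_200H within that cohort, the smallest possible. Over both cohorts the log2 differences were −0.11 and −0.10, with Benjamini-Hochberg adjusted p of 0.171 and 0.220 in the exact permutation test, so this ratio did not pass.

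miR-100-5p over miR-99a-5p sets chromosome 9 against chromosome 16 with strands that differ by 1 base. It was 0.0737, 0.0424, 0.0653 and 0.0401 in breeding trial WT, 0.0798, 0.0860 and 0.0964 in Zeb1_200H, and 0.0725, 0.0878 and 0.0859 in Zeb1_200M. WT replicate 1 stood with the mutants and the other WT libraries below them. Over both cohorts the log2 difference was +0.40 in Zeb1_200M, with an exact two-sided permutation p of 0.0139 and an adjusted p of 0.0971, and +0.27 in Zeb1_200H, with an adjusted permutation p of 0.543. Without virgin Zeb1_200H replicate 3 the difference in Zeb1_200H was +0.45, with an adjusted permutation p of 0.05, which is at the threshold and not below it. Among virgin libraries it was between 0.0779 and 0.0861 in WT and between 0.0870 and 0.101 in Zeb1_200M, and in Zeb1_200H it was 0.0348 in replicate 3 and 0.0921 to 0.0941 in the others.

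On chromosome 17, miR-99b-5p over miR-125a-5p was 0.242, 0.143 and 0.145 in virgin WT, 0.126, 0.138, 0.132 and 0.129 in virgin Zeb1_200H, and 0.123, 0.125, 0.132 and 0.147 in virgin Zeb1_200M. WT replicate 1 was far above the others, all 4 Zeb1_200H libraries lay below all 3 WT libraries, and Zeb1_200M overlapped with WT. Within the virgin cohort the log2 difference was −0.39 in Zeb1_200H, with a two-sided exact permutation p of 0.0286, the smallest possible, and −0.38 in Zeb1_200M, with 0.114. In the breeding trial cohort it was 0.0981 to 0.133 in WT, 0.0902 to 0.150 in Zeb1_200H and 0.0988 to 0.117 in Zeb1_200M, and the groups overlapped. let-7e-5p over miR-99b-5p was 8.32, 3.25 and 2.98 in virgin WT and 3.28 to 3.97 in the virgin mutants, and 1.54 to 2.64 in breeding trial WT, 2.63 to 2.94 in Zeb1_200H and 1.97 to 3.31 in Zeb1_200M. WT replicate 1 was again far above the other virgin libraries. Over both cohorts the log2 differences of miR-99b-5p over miR-125a-5p were −0.19 and −0.12 in Zeb1_200M and Zeb1_200H, and those of let-7e-5p over miR-99b-5p +0.08 and +0.10, with adjusted p in the exact permutation test of 0.401 to 0.857. Without virgin WT replicate 1 these were −0.06 and 0.00182 for miR-99b-5p over miR-125a-5p and +0.31 and +0.34 for let-7e-5p over miR-99b-5p.

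The arms of the miR-125a hairpin were far from equal. miR-125a-3p over miR-125a-5p was 0.0266, 0.00567 and 0.00555 in virgin WT and 0.00500 to 0.00654 in the virgin mutants. In the breeding trial cohort it was 0.00386 to 0.00628 in WT, 0.00609 to 0.00849 in Zeb1_200H and 0.00197 to 0.00452 in Zeb1_200M. Zeb1_200M lay below Zeb1_200H there, with an exact two-sided permutation p of 0.1, which is the smallest that 3 libraries against 3 can give. Over both cohorts the log2 differences were −0.64 in Zeb1_200M against WT, −0.04 in Zeb1_200H against WT and −0.60 between the mutants, with adjusted permutation p of 0.200, 0.958 and 0.220. These pool unlike values, since the log2 difference in Zeb1_200H against WT was −0.75 among virgin and +0.67 among breeding trial libraries, and that between the mutants +0.11 and −1.30. Without virgin WT replicate 1 the pooled differences from WT were −0.26 in Zeb1_200M and +0.33 in Zeb1_200H.

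The passenger strands of the miR-125b hairpins could be compared in the virgin cohort only, since miR-125b-1-3p had 0 counts in breeding trial WT replicate 3 and Zeb1_200M replicate 3. miR-125b-1-3p over miR-125b-2-3p was 0.602, 0.279 and 0.321 in virgin WT, 0.270, 0.233, 0.232 and 0.306 in Zeb1_200H, and 0.264, 0.270, 0.2496 and 0.307 in Zeb1_200M. The strand of chromosome 16 was thus the more abundant in every virgin library, and WT replicate 1 was the highest. The log2 differences from WT were −0.47 in Zeb1_200M and −0.55 in Zeb1_200H, with adjusted p of 0.200 and 0.220 in the exact permutation test, and −0.14 and −0.21 without WT replicate 1.

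The other strands of the clusters and the relatives outside them were compared as lists. Of the 5 other strands of the member hairpins, 4 passed the count filter among virgin libraries and 1 among those of the breeding trial. Of the 6 let-7 strands of the clusters, 6 passed in the virgin cohort and 2, 1 and 2 in the comparisons of the breeding trial cohort, where let-7a-5p and let-7c-5p were not analysed here. Of the relatives miR-351-5p, miR-10a-5p and miR-10b-5p, 3 and 1 passed. edgeR called 0 of them in each of the 6 comparisons after Benjamini-Hochberg adjustment, and below 0.05 unadjusted were 1 other strand between the virgin mutants and, in breeding trial Zeb1_200H against WT, 1 other strand and 1 let-7 strand.

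The 2 in Zeb1_200H were miR-125b-2-3p and let-7e-5p, which are named after their values were seen. miR-125b-2-3p, the passenger strand from chromosome 16, was at 140, 163, 126 and 147 in breeding trial WT, at 264, 204 and 241 in Zeb1_200H, and at 104, 204 and 201 in Zeb1_200M. Zeb1_200H lay above WT in every library, and Zeb1_200M replicate 1 was below WT. The log2 fold change in Zeb1_200H was +0.76 (SE 0.252), with an edgeR Benjamini-Hochberg adjusted p of 0.0512, and the adjusted p was 0.0485 with RLE size factors, 0.0258 in limma voom, 0.0275 with the replicate number as a block and 0.260 in DESeq2. In virgin Zeb1_200M against WT miR-125b-2-3p was not called with all libraries (edgeR adjusted p 0.685) and was called higher without WT replicate 1 (0.00642) and in limma voom with all libraries (0.0113). let-7e-5p was at 4516, 4320, 4835 and 5565 in breeding trial WT and at 6297, 6747 and 4952 in Zeb1_200H, where 2 libraries were above WT and 1 within it. Its log2 fold change was +0.34 (SE 0.126), with an edgeR adjusted p of 0.0809, and 0.0404 without Zeb1_200H replicate 4, and the fold change was +0.22 without Zeb1_200H replicate 3, with 0.239.

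Marker miRNAs of cell types were compared as well. Their counts stand beside the shares of all tested miRNAs that edgeR called, which were 35.9% in breeding trial Zeb1_200M against WT, 12% in Zeb1_200H against WT and 1.09% between those mutants, and 6.49%, 5.06% and 2.22% among virgin libraries. The lists are short, and whether a count differed from these shares was not tested. In bulk tissue fewer cells of a type and less RNA per cell cannot be told apart. The pituitary endocrine markers miR-7a-5p, miR-7b-5p and miR-375-3p, which were abundant in every library, summed to 349779, 296580, 333698 and 341283 in breeding trial WT, to 289535, 254506 and 245393 in Zeb1_200H, and to 230827, 244414 and 225653 in Zeb1_200M. On the TMM scale WT was the highest and the mutants did not reach it. As a share of counts the 3 markers were at 13.59, 6.055 and 9.28% in Zeb1_200H replicate 1. They were at 10.21, 4.238 and 14.35% in WT replicate 2, so by share these libraries were nearly equal in sum. The other mutant libraries stayed below WT by share as well. edgeR called 2 of 3 lower in Zeb1_200M (miR-7a-5p and miR-375-3p), 1 of 3 in Zeb1_200H (miR-375-3p) and 0 of 3 between the mutants, beside 35.9%, 12% and 1.09% of all tested. Virgin sums were 578141, 285999 and 281003 in WT, 254928, 231885, 268349 and 248368 in Zeb1_200H, and 216965, 229864, 217194 and 263481 in Zeb1_200M, with 0 of 3 called by edgeR in each comparison (2, 1 and 1 below 0.05 unadjusted). miR-7a-5p was the most abundant of the 3 in virgin WT and none was at 0.

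The neuronal markers miR-124-3p, miR-9-5p, miR-128-3p and miR-138-5p summed to 3723, 3100, 3030 and 4163 in breeding trial WT, to 7507, 5808 and 7030 in Zeb1_200H, and to 9871, 10306 and 10444 in Zeb1_200M. In the virgin cohort they summed to 2039, 2740 and 2950 in WT, to 5375, 5233, 5826 and 5758 in Zeb1_200H, and to 8477, 6955, 8323 and 5886 in Zeb1_200M. The genotypes did not overlap in either cohort, and the sum was the highest in Zeb1_200M. This order of the genotypes was that of miR-124-3p, whereas the ranges of the other 3 markers overlapped between Zeb1_200H and Zeb1_200M in each cohort. miR-124-3p was the most abundant marker of the mutants, and none of the 4 was at 0. edgeR called 2 of 4 higher in breeding trial Zeb1_200M (miR-124-3p and miR-9-5p, beside 35.9% of all tested), and 1 of 4, miR-124-3p, in breeding trial Zeb1_200H (beside 12%) and between the mutants of that cohort (beside 1.09%). The virgin table lists miR-124-3p in 2 forms, and these were called, 2 of 5 entries, in each virgin comparison, beside 6.49%, 5.06% and 2.22% of all tested.

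The other markers were closer together. The blood markers miR-451a, miR-144-3p and miR-486a-5p summed to 6690, 8532, 6097 and 7022 in breeding trial WT, to 6706, 8141 and 6846 in Zeb1_200H, and to 6511, 7426 and 9870 in Zeb1_200M, where miR-486a-5p was not analysed here. The groups overlapped, and 1 of 2, miR-144-3p, was called higher in Zeb1_200M by edgeR (beside 35.9% of all tested) and 0 of 2 in the other comparisons, with 1 below 0.05 unadjusted in Zeb1_200H. Virgin sums were 8257, 8180 and 10004 in WT, 8249, 17149, 10543 and 9385 in Zeb1_200H, and 9317, 8509, 8743 and 10563 in Zeb1_200M, with Zeb1_200H replicate 2 the highest and 0 of 3 called by edgeR in each comparison (0 unadjusted). miR-451a was the most abundant of them.

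The vascular and mesenchymal markers miR-126a-3p, miR-143-3p, miR-145a-5p, miR-199a-5p and miR-214-3p summed to 9025, 8541, 8887 and 9666 in breeding trial WT, to 10783, 9722 and 10506 in Zeb1_200H, and to 11535, 11335 and 10317 in Zeb1_200M. WT was the lowest, and edgeR called 3 of 5 higher in Zeb1_200M (miR-126a-3p, miR-143-3p and miR-145a-5p), beside 35.9% of all tested, where miR-214-3p passed the count filter through Zeb1_200M alone and was not called, and 0 of 4 in Zeb1_200H and 0 of 5 between the mutants, with 1 below 0.05 unadjusted in each. Virgin libraries summed to 11745, 7696 and 6848 in WT, to 9109, 8388, 7132 and 8380 in Zeb1_200H, and to 9843, 9126, 7038 and 9296 in Zeb1_200M, and 1 of 6 entries, miR-145a-5p, was called higher in Zeb1_200M (beside 6.49%) and 0 in the other comparisons (1 unadjusted each). miR-126a-3p was the most abundant of them. The skeletal muscle marker miR-206-3p was between 0.0982 and 2.48 in the virgin libraries and at 0 in the breeding trial libraries except Zeb1_200H replicate 3, where 1 count gave 15.7, and it passed the count filter only in virgin Zeb1_200M against WT and against Zeb1_200H, where edgeR did not call it (1 below 0.05 unadjusted, against WT, where it passed through Zeb1_200M alone). The part of any of these markers in the levels of the members was not tested.

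The miRNAs most alike to each 5p member were sought among 154 miRNAs with a mean of at least 50 counts in each cohort. These 154 include the 5 members compared, which were left out of the ranking. The measure was the lower of Pearson's r of log2 levels over 10 virgin libraries, without WT replicate 1, and over 10 breeding trial libraries. These libraries span the genotypes and share their scaling, so r describes them only. For miR-125a-5p they were miR-30e-3p (0.649), miR-210-3p (0.591) and miR-1839-5p (0.540), and for miR-125b-5p miR-30a-3p (0.539), let-7f-5p (0.520) and miR-222-3p (0.479). For miR-99a-5p they were miR-154-3p (0.518), miR-299a-5p (0.463) and miR-138-5p (0.414). miR-99b-5p was most like miR-92a-3p (0.843), miR-672-5p (0.795) and miR-30d-5p (0.696), and miR-100-5p was most like miR-379-5p (0.603), miR-212-5p (0.45) and miR-137-3p (0.393). Among the members, miR-125b-5p and miR-99a-5p had r of 0.899 in the virgin and 0.683 in the breeding trial libraries, miR-125b-5p and miR-100-5p 0.36 and 0.806, and miR-125a-5p and miR-99b-5p, which share the cluster on chromosome 17, 0.129 and 0.589. Across clusters, miR-125a-5p had r of 0.489 and −0.402 with miR-125b-5p, 0.418 and 0.119 with miR-99a-5p, and −0.086 and −0.537 with miR-100-5p. miR-99b-5p had −0.321 and −0.193 with miR-125b-5p, −0.460 and 0.224 with miR-99a-5p, and −0.202 and −0.267 with miR-100-5p. For miR-99a-5p and miR-100-5p r was 0.270 and 0.222.

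These data have limits. Groups held 3 or 4 libraries, and the breeding trial libraries were so shallow that miR-125a-3p rested on 5 to 22 reads. Virgin WT had 3 libraries, of which 1 stood apart, so that a fold change against virgin WT mixes genotype with that library. A fold change of Zeb1_200M in the breeding trial mixes genotype with pregnancy history, whose part was not tested. Matching the start of a read to a dictionary can miss forms whose 5′ end differs. Levels of mature strands do not show transcription of a cluster, and primary transcripts of these clusters were not analysed here. Pituitaries were sequenced in bulk, so the cells in which a strand changed are unknown, and targets of the members were not analysed here.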

How the data were processed

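The authors trimmed reads with cutadapt, kept those whose bases all passed a quality filter, matched read starts of 19 nt to a TargetScanMouse dictionary for virgin libraries and of 18 nt to a miRBase dictionary for the breeding trial, removed size standards and spike-ins, and deposited raw read counts per miRNA and library, without genome alignment and without pooling replicates. The authors' DESeq2 version for the virgin cohort was 1.38.3. Their comparison columns hold a mean, a log2 fold change, its error, a statistic and p values and were not used, nor were 42 columns of normalized values. Counts that recur between the 6 tables were identical for all 21 libraries.

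Members and lists were chosen with earlier results of these data known. Each pair of genotypes within a cohort was tested by the quasi-likelihood F test of edgeR 4.0.16 under R 4.3.3, after TMM scaling and filterByExpr (at least 10 counts, total of at least 15), with Benjamini-Hochberg adjustment over all miRNAs tested and a threshold of 0.05. A miRNA none of whose libraries in 1 genotype reached the cut of the filter was counted as passing through the other genotype alone, a split made after the values were seen. The interaction used the 1816 names shared by the cohorts. Ratios of raw counts were tested by exact two-sided permutation within cohorts, without regard to same-numbered pairs, with adjustment over 21 tests. Alternatives were DESeq2 1.42.0, no filter, RLE size factors, all 3 genotypes in 1 fit, TMM computed with the miR-200 superfamily set aside, limma 3.58.1 voom with sample weights, a replicate block, leaving out each library and, for ratios, 1 added to each count and medians. The fits and the permutation test were tried on simulated data.

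Same-numbered libraries correlated weakly in breeding trial Zeb1_200H against WT (r of 0.112, 0.101 and 0.190 for replicates 1, 3 and 4, after removal of group means). These numbers were taken to pair libraries, although the labels do not say what a number marks. Only the libraries numbered 4 were each other's best match, so the pairing is an assumption. In breeding trial Zeb1_200M against WT, r was 0.019, −0.104 and −0.029 for replicates 1, 2 and 3. Named miRNAs are the members, the fixed lists and the 3 most alike to each 5p member. Single fold changes were recomputed under the alternatives only for those printed in the report, a choice made after a run over all members and relatives gave many sign changes near 0.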

Additional observations from a re-analysis of the deposited data

Results flagged for a closer look

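In 3 of 39 groups of 4 libraries tested, 1 library stood apart by Dixon's criterion, which compares its gap from the others with the range. Chance sets about 1 in 20 such groups apart, so the number found was not far from that. miR-100-5p was at 165 in virgin Zeb1_200H replicate 3, against 427 to 454 in the other libraries of the group. In the same library miR-100-5p over miR-99a-5p was 0.0348, against 0.0921 to 0.0941, while miR-99a-5p was ordinary at 4748. This level and this ratio rest on the same miR-100-5p count and are not independent. miR-99a-5p over miR-125b-5p was 0.180 in virgin Zeb1_200M replicate 2, against 0.170 to 0.171 in the others. No cause was tested.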

How the results depend on the processing

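Counts of members called, ratios and the fold changes of the members against WT within a cohort were recomputed under the alternatives and without each library. Between the mutants, of the members' fold changes only that of miR-125a-3p in the breeding trial cohort was recomputed. Differences between cohorts were recomputed with RLE size factors, with no filter and without virgin WT replicate 1 only. Marker calls, group overlaps, medians and correlations were not recomputed. The cause of any difference was not tested.

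The number of members called in breeding trial Zeb1_200M against WT was 4, or 3 with miR-125a-3p set aside, which passed the filter through WT alone, and lay between 1 and 4 when 1 library was left out. In breeding trial Zeb1_200H against WT it was 1, lay between 0 and 1 when 1 library was left out, was 0 in DESeq2 and was 2 with the replicate number as a block (pairing of same-numbered libraries). With the block the count in breeding trial Zeb1_200M was 3, and it changed no other called count.

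Ratio of miR-125a-5p to miR-125b-5p: Zeb1_200M against WT −0.39 with medians and −0.4445 to −0.365 without 1 library, Zeb1_200H against WT −0.31 and −0.3625 to −0.2948. The direction was kept each time, and the report names each library without which the adjusted p exceeded 0.05.

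Ratios not called that changed sign: miR-99b-5p over miR-125a-5p in Zeb1_200H was 0.0693 with medians and −0.21 to 0.0018 without 1 library, and between the mutants −0.17 to 0.0186. let-7e-5p over miR-99b-5p was −0.0591 to 0.31 in Zeb1_200M, −0.0330 to 0.34 in Zeb1_200H and −0.13 to 0.0593 between the mutants. miR-99a-5p over miR-125b-5p between the mutants was 0.0127 with medians and −0.0289 to 0.00635. miR-100-5p over miR-99a-5p between the mutants was −0.00342 with medians and −0.0471 to 0.19. miR-125a-3p over miR-125a-5p in Zeb1_200H was 0.43 with medians and −0.23 to 0.33. miR-125b-1-3p over miR-125b-2-3p between the mutants was −0.49 with 1 added to each count. The added count also brought in the breeding trial libraries, which the main value leaves out. This row thus changed 2 choices at once, and its change of sign cannot be put down to the added count alone.

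Virgin log2 fold changes not called that changed sign: miR-125a-3p in Zeb1_200M was 0.0302 in limma voom and −0.88 to 0.0870 without 1 library. miR-125a-5p was −0.0248 in limma voom and −0.0210 to 0.28 in Zeb1_200M, and −0.00582 and −0.0249 to 0.30 in Zeb1_200H. miR-100-5p in Zeb1_200H was −0.0244 to 0.47. In the breeding trial, Zeb1_200H against WT, miR-99a-5p was −0.0658 to 0.10 and miR-99b-5p −0.31 to 0.0063.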

Other observations

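miR-143-3p, a marker of smooth muscle and mesenchymal cells, was at 572 in virgin Zeb1_200H replicate 3, against 1344 to 1938 in the other libraries of that group, and at 24.1 in virgin Zeb1_200M replicate 3, against 2000 to 2316. The low libraries had ordinary levels of miR-145a-5p, the strand encoded beside it, at 1380 and 1838. miR-100-5p was low in Zeb1_200H replicate 3 (165) and not in Zeb1_200M replicate 3 (496). miR-143-3p was singled out after its values were seen, and no cause was tested.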
